A study of Solanum lycopersicum with 9 samples.

Results

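The probe sets described here are the 46 that the study placed in its functional category "protein destination and storage", among 607 probe sets that it listed as differing between treatments and 10038 tomato probe sets on the Affymetrix Tomato GeneChip. Probe sets with a platform symbol of the heat shock series (HSP, HSC or HSF) were to be left out, and there were 0 of these. Membership was selected on the signals of the same 9 arrays that are described below, in all 3 comparisons among treatments, so the differences of the members are given as a description and carry no test. The list held only probe sets that had passed the study's own threshold, so no member of the class just outside that threshold can be shown. The study marked 2 of the 46 as one gene, which leaves 45 genes.

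Wild-type tomato plants (Solanum lycopersicum cv. 76R) were grown in field soil, and the treatment solution was injected into a buried soil ring, the patch, through which roots had grown. The treatments were water (0 µg NH4+-N added per g soil), low NH4+ (6.5 µg) and high NH4+ (65 µg), with 3 arrays each. RNA came from patch roots excised 53 h after injection. Each array carried RNA of separate plants of 1 cultivar in 1 soil at 1 time, and the roots were colonized by arbuscular mycorrhizal fungi. As in any bulk root sample, fewer cells of a type and less RNA per cell cannot be told apart.

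Proteins reach their place of work through sorting signals and membrane transport, fold with the help of chaperones, and are removed by proteases or by the ubiquitin system. In that system an E1 enzyme activates ubiquitin, an E2 enzyme carries it, an E3 ligase chooses the substrate, and the proteasome degrades the tagged protein. Deubiquitinating enzymes take ubiquitin off again, and the related modifier RUB1 is attached by an E2 of its own to cullins, the scaffolds of one large family of E3 ligases. In plant cells much of the bulk proteolysis takes place in the vacuole, where vacuolar processing enzymes and other proteases act, and proteinase inhibitors hold such enzymes in check.

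By the titles in the study's annotation, 11 of the members belonged to the ubiquitin pathway, 4 were proteases, 1 was a proteinase inhibitor and 4 were chaperones. A further 10 carried some other title, and 16 had no protein name, only a clone name or none. No title named a storage protein. Members are named below by their titles, clones or symbols. A printed gene list of the study pairs the identifiers of some members with other gene names. These are the dnaJ-related, heat shock protein and ATJ3-like probe sets, the one similar to Os06g0274000, and clones 134850R and 134892R, so their names rest on the annotation used here and were not checked against probe sequences.

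Values are log2 signals. A probe set entered the fit if its signal reached 100 on at least 1 of the 9 arrays, which kept 6670 probe sets and all 46 members, 39 of them at 100 or above on every array. A probe set was called if the adjusted p of limma, with Benjamini-Hochberg adjustment over the 6670, was at most 0.1, a false discovery rate of 10%. The median log2 signal of all tomato probe sets lay between 6.87 and 7.59 on the 9 arrays. The dimmest array was replicate 2 of low NH4+ and the brightest was replicate 3 of water, and these 2 also stood apart at opposite ends of the first principal component (37.8% of the variance). The 4 root marker genes were all measured, and the log2 of their summed signal ranged from 11.91 to 12.32 in water, from 12.05 to 12.51 in low NH4+ and from 12.39 to 12.7 in high NH4+. The 4 did not move together, so their sum is no measure of root content. FER was called lower in both treatments (-0.86 in high and -2.12 in low NH4+) and AMT1-2 was called higher in high NH4+ (2.03 in high and 0.31 in low NH4+), while PT1 (-0.32 and -0.7) and RSI-1 (0.79 and 0.68) were not called. Of 3 probe sets for photosynthetic genes only the one for CAB4 reached 100 on any array, and their summed signal ranged from 7.46 to 8.48 in water, from 6.32 to 7.44 in low NH4+ and from 6.17 to 7.62 in high NH4+. The part of either marker list in the differences below was not tested.

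Most of the class had less signal in high NH4+ than in water roots. By the mean of 3 arrays, 32 of the 46 (69.6%) were lower and 14 were higher in high NH4+ than in water, while 57.5% of all probe sets tested were lower. Of the members, 19 were called lower and 7 higher, where the background over all probe sets tested was 3.79% called lower and 2.73% called higher. The median difference of the members was -0.6 on the log2 scale, with a median of -0.08 over all probe sets tested. The high NH4+ and water arrays did not overlap for 45 of the 46, with a background of 33.0% over all probe sets tested. Because the rule used this contrast, these shares describe the list and support nothing.

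**Figure D1:**
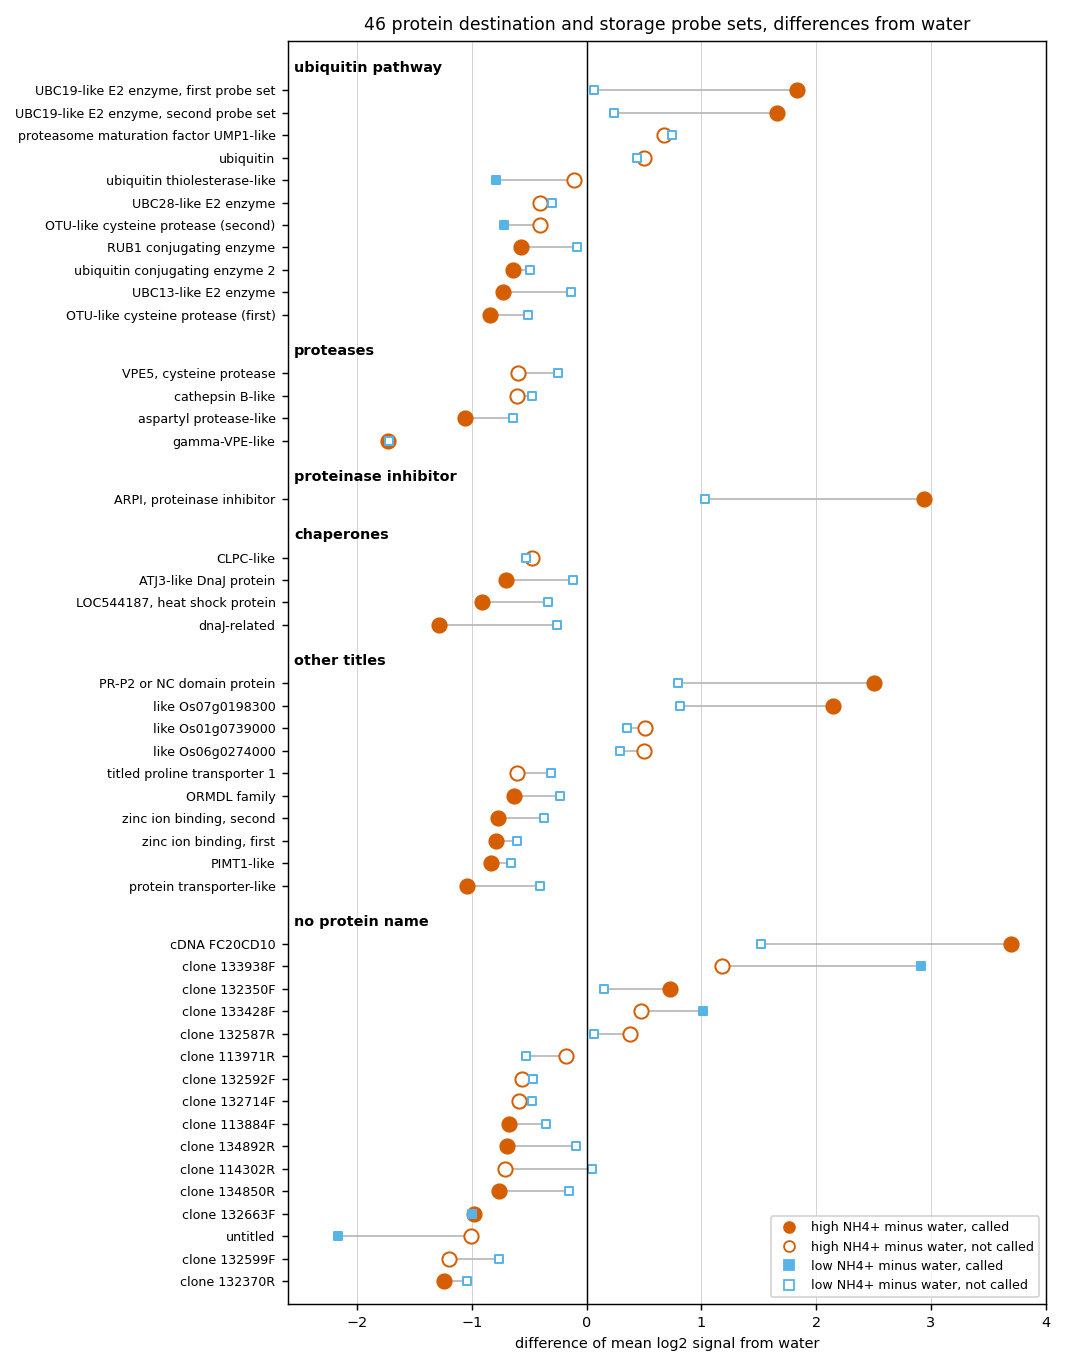
Difference of mean log2 signal from water (x axis) of each of the 46 probe sets (rows, by role), for high NH4+ (circles) and low NH4+ (squares, drawn on top), n = 3 arrays per treatment; filled symbols were called by limma at a false discovery rate of 10%. Of the circles, 32 lie left of 0 and 14 right of it, and on this scale the 4 proteases and 4 chaperones lie left of 0 in both treatments. With each array centred on its median, 3 of those chaperones and 1 of those proteases lie right of 0 in low NH4+.

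Fewer of the same probe sets were called in low NH4+ against water. The study listed more genes in high than in low NH4+ against water. Smaller low NH4+ differences therefore follow in part from how the list was made. In low NH4+, 31 of the 46 (67.4%) were lower than in water by mean, against 64.8% of all probe sets tested. Only 4 were called lower and 2 higher, with backgrounds of 2.44% and 0.540%. The median difference was -0.28 for the members and -0.16 over all probe sets tested. The arrays of the 2 treatments did not overlap for 28 of the 46 members, with a background of 25.3%. This direction depended on the scaling. With each array centred on its median, the median difference over all probe sets tested shifted by 0.37 in low and by 0.12 in high NH4+ against water, and by -0.26 between high and low NH4+. On that scale 19 of the 46 were below water in low NH4+, and 12 members had changed sign there. In high NH4+ against water 1 had, the ubiquitin thiolesterase-like probe set.

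Between the 2 ammonium treatments, 29 of the 46 (63.0%) had less signal in high than in low NH4+, while 42.7% of all probe sets tested did. The direction of this background depended on the scaling. The median difference over all probe sets tested was 0.07 as reported, -0.04 under quantile normalization and -0.18 under median centring. On those 2 scales 31 and 34 of the members were lower. A single member, the second UBC19-like probe set, was called, as higher in high NH4+, with backgrounds of 0.840% called higher and 0.0600% called lower. The arrays did not overlap for 25 members, with a background of 24.7%.

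In order of dose, the means were highest in water, lower in low NH4+ and lowest in high NH4+ for 25 of the 46 members (54.3%), and the order was the opposite for 11 (23.9%). Over all probe sets tested, 20.0% had the first order and 12.5% the second. The orders depended on the scaling. With each array centred on its median, 12 members of the first order lay above water in low NH4+ and so lost it. The CLPC-like probe set and clone 132663F gained it. Ubiquitin and the probe sets similar to Os06g0274000 and Os01g0739000 lost the second order. The counts in this paragraph are on the reported scale. Another 6 members were lowest in low NH4+, 3 were highest there, and 1, clone 114302R, lay below water in high NH4+ and above it in low NH4+. Of the 32 members below water in high NH4+, 20 had a low NH4+ difference of the same sign and at least 0.5 times as large, and in 6 it was the larger of the 2. Of the 14 above water in high NH4+, 6 had a low NH4+ difference at least 0.5 times as large and 3 a larger one. The 2 ammonium treatments share the water arrays, so these counts are not 2 separate measurements. The list was chosen on these same arrays, so the orders describe it and support nothing.

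The ubiquitin pathway members split in direction, and the E2 enzymes split among themselves. The largest difference was that of the UBC19-like E2, which 2 probe sets measured. In Arabidopsis UBC19 belongs to the E2-C family, whose animal members work with the anaphase-promoting complex in the degradation of mitotic cyclins. The first probe set had log2 signals of 6.91, 7.34 and 7.27 in water, 7.83, 6.51 and 7.36 in low NH4+, and 9.58, 8.99 and 8.42 in high NH4+. The second had 8.28, 8.53 and 8.38 in water, 9.11, 8.28 and 8.52 in low NH4+, and 10.47, 10.1 and 9.61 in high NH4+. On both, every high NH4+ array lay above every other array, replicate 1 was the highest of the 3, and the low NH4+ and water arrays overlapped. Signal was 3.55-fold and 3.17-fold higher in high NH4+ than in water, differences of 1.83 ± 0.38 and 1.66 ± 0.27 (log2, limma SE, n = 3 arrays each). In low NH4+ the differences from water were only 0.06 and 0.24. The second probe set was called in high NH4+ against water under 13 of the 16 alternative settings tried, more than any other member. The settings reuse the arrays on which the members were chosen, so this count is a description and supports nothing.

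The other E2 enzymes had less signal in high NH4+ than in water. The UBC13-like E2, known in yeast and animals for building ubiquitin chains that signal rather than mark for degradation, had log2 signals of 11.08, 11.11 and 10.97 in water, 10.8, 10.99 and 10.93 in low NH4+, and 10.37, 10.13 and 10.47 in high NH4+. The 3 high NH4+ arrays lay below the other 6. The difference from water was -0.73 ± 0.15 in high NH4+, 1.66-fold lower, and -0.14 in low NH4+. The probe set for ubiquitin conjugating enzyme 2 (symbol LOC543683, synonym UBC33) was at 8.98, 8.76 and 8.91 in water, 8.32, 8.33 and 8.54 in low NH4+, and 8.22, 8.21 and 8.32 in high NH4+. Here both ammonium treatments lay below water on every array, with differences of -0.64 in high and -0.49 in low NH4+. The UBC28-like E2 was at 10.16, 10.1 and 10.32 in water, 9.71, 9.95 and 10.02 in low NH4+, and 9.85, 9.7 and 9.8 in high NH4+. Water lay above both ammonium treatments on every array, with differences of only -0.41 in high and -0.3 in low NH4+ and no call in either.

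The E2 for RUB1 (symbol LOC543810, synonym RCE1) had log2 signals of 12.32, 12.39 and 12.15 in water, 12.1, 12.18 and 12.32 in low NH4+, and 11.58, 11.65 and 11.9 in high NH4+. Its difference from water was -0.57 ± 0.15 in high NH4+, where no array overlapped with water, and -0.08 in low NH4+, where the arrays overlapped. Under median centring the low NH4+ differences of the UBC13-like, UBC28-like and RUB1 enzymes turned to 0.22, 0.06 and 0.28. Of the other ubiquitin pathway members, ubiquitin itself was at 10.92, 11.35 and 11.09 in water, 11.63, 11.5 and 11.54 in low NH4+, and 11.56, 11.77 and 11.51 in high NH4+. The ammonium arrays overlapped each other above those of water, with differences of 0.5 in high and 0.44 in low NH4+. The probe set similar to UMP1, a chaperone of proteasome assembly in yeast, was above water by 0.67 in high and 0.74 in low NH4+. It was a dim probe set, at 6.38, 6.53 and 5.93 in water, 6.83, 7.28 and 6.94 in low NH4+ and 7.02, 7.0 and 6.84 in high NH4+, and it reached a signal of 100 on only 6 arrays, those of the ammonium treatments. Neither was called in either comparison with water.

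In all, 3 members are likely deubiquitinating enzymes by their titles, and all were below water in both treatments by mean. Under quantile normalization or median centring the ubiquitin thiolesterase-like one was instead just above water in high NH4+ (0.02 and 0.01). The first OTU-like cysteine protease was at 9.92, 9.71 and 10.09 in water, 9.58, 9.35 and 9.25 in low NH4+, and 9.14, 8.7 and 9.36 in high NH4+. Water lay above all ammonium arrays, and the member was called in high NH4+, with a difference of -0.84 ± 0.2 there and -0.51 in low NH4+. The second was called in low NH4+ instead, where its log2 signals were 7.69, 7.73 and 8.03 against 8.6, 8.48 and 8.54 in water, a difference of -0.72 and a signal 1.65-fold lower. Its high NH4+ arrays, at 8.12, 8.09 and 8.17, lay between those of low NH4+ and water without overlap. The ubiquitin thiolesterase-like probe set was lower in low NH4+, at 6.78, 6.61 and 6.54, than in water, at 7.57, 7.58 and 7.13, and was called there (-0.79). Under quantile normalization and median centring that difference was -0.4 and -0.42, and that of the second OTU-like probe set was -0.44 and -0.36. The thiolesterase-like probe set reached a signal of 100 on 7 arrays, and low NH4+ replicates 2 and 3 were below it. In high NH4+ it was at 7.46, 7.12 and 7.38, a difference from water of -0.11, and it was the 1 member of 46 whose high NH4+ and water arrays overlapped.

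The 4 proteases had lower means than water in both ammonium treatments, except that VPE5 lay above water in low NH4+ (0.12) under median centring. Of these, 2 were called in high NH4+ and 0 in low NH4+. The largest difference was that of the γVPE-like probe set. The γ type of vacuolar processing enzyme is, in Arabidopsis, the main one of vegetative organs, where it matures other vacuolar enzymes. Its log2 signals were 10.55, 9.75 and 9.83 in water, 8.38, 7.35 and 9.23 in low NH4+, and 7.87, 8.34 and 8.74 in high NH4+. Every array of either ammonium treatment lay below every water array, and the 2 ammonium treatments overlapped. Signal was 3.31-fold lower in high NH4+ (-1.73 ± 0.46) and 3.3-fold lower in low NH4+ (-1.72 ± 0.46) than in water. Only the high NH4+ difference was called.

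VPE5, by its symbol another vacuolar processing enzyme and titled cysteine protease, had smaller differences of -0.6 in high and -0.25 in low NH4+. Its high NH4+ arrays were at 10.93, 11.38 and 11.57, against 11.91, 11.79 and 11.97 in water, and it was not called. The aspartyl protease-like probe set had 8.49, 7.44 and 8.04 in water, 7.26, 7.41 and 7.4 in low NH4+, and 6.72, 6.75 and 7.33 in high NH4+. Its means were ordered by dose, and it was 2.08-fold lower in high NH4+ than in water (-1.06 ± 0.28), although water replicate 2 lay just above the ammonium arrays. The cathepsin B-like cysteine protease, a papain-type enzyme of the vacuole or lysosome, was at 11.59, 11.17 and 11.57 in water, 11.02, 11.12 and 10.76 in low NH4+, and 10.88, 10.71 and 10.92 in high NH4+. Its water arrays were the 3 highest, and the differences were -0.61 in high and -0.48 in low NH4+.

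The single proteinase inhibitor ran opposite to the proteases. ARPI had log2 signals of 7.56, 8.54 and 9.65 in water, 10.1, 8.36 and 10.39 in low NH4+, and 12.22, 11.31 and 11.03 in high NH4+. The high NH4+ arrays lay above all others, while low NH4+ replicate 2 was far below its 2 companions and within the range of water. ARPI signal was 7.66-fold higher in high NH4+ than in water (2.94 ± 0.65) and 2.05-fold higher in low NH4+ (1.03). Without low NH4+ replicate 2 the low NH4+ difference from water was 1.66, and the difference of high from low NH4+ was 1.28, compared with 1.9 over all arrays.

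**Figure D2:**
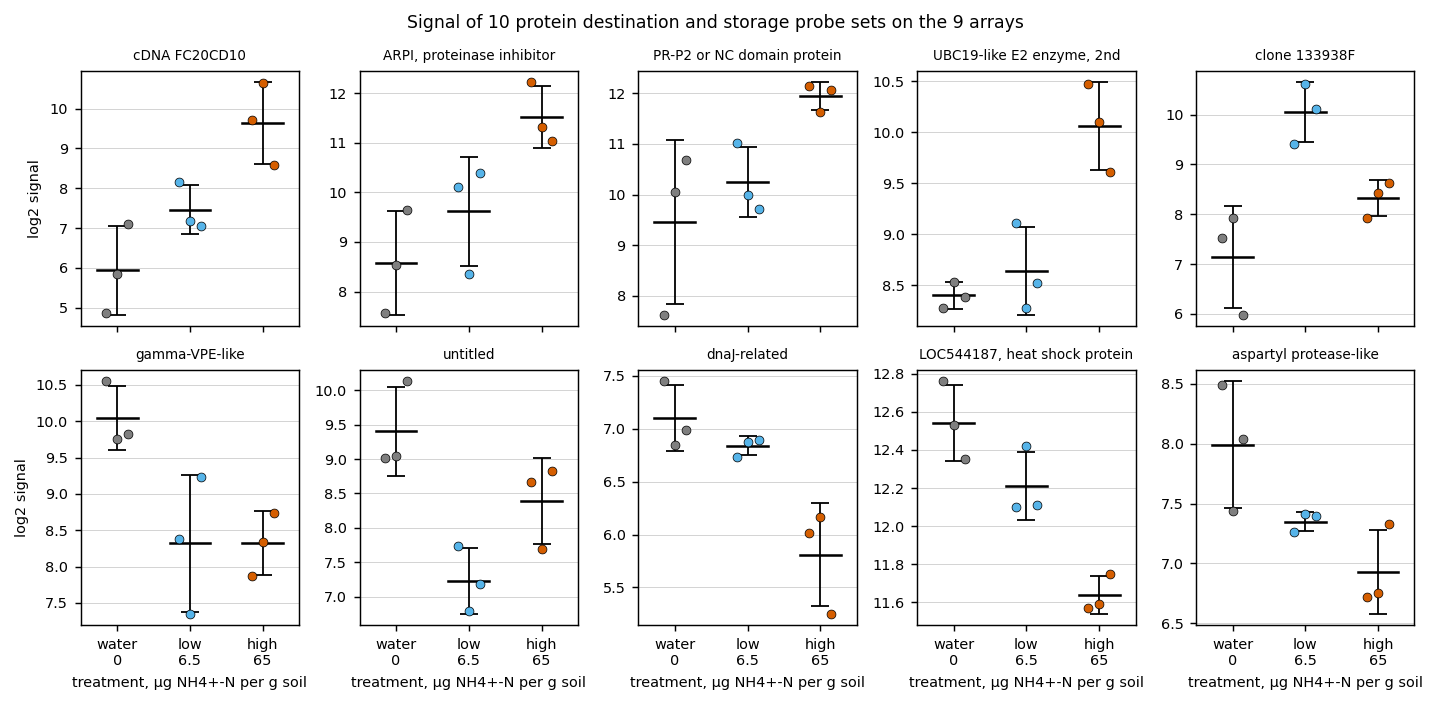
Log2 signal (y axis, scaled to each panel) of 10 of the 46 probe sets on each array (points, replicates 1 to 3 from left to right) by treatment in µg NH4+-N per g soil; bars are the mean ± SD of 3 arrays. The top row shows 4 probe sets highest in high NH4+ and clone 133938F, highest in low NH4+, and the bottom row shows 5 that were lower than water in both treatments by mean on this scale. Under median centring the dnaJ-related and heat shock protein probe sets are above water in low NH4+ (0.1 and 0.03).

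The 4 chaperones had lower means than water in both treatments, and 3 were called in high NH4+. The low NH4+ direction depended on the scaling, since under median centring 3 of the 4 lay above water there, the heat shock protein at 0.03, the dnaJ-related probe set at 0.1 (0.12 under quantile normalization) and the ATJ3-like protein at 0.25. The dnaJ-related probe set had 7.45, 6.85 and 6.99 in water, 6.73, 6.88 and 6.89 in low NH4+, and 6.01, 6.17 and 5.25 in high NH4+. DnaJ proteins are co-chaperones that hand clients to HSP70. Its high NH4+ arrays were the lowest 3, all below a signal of 100, and the difference from water was -1.29 ± 0.26, 2.44-fold lower.

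The probe set titled heat shock protein (LOC544187, synonym TFHS1) had log2 signals of 12.76, 12.53 and 12.35 in water, 12.1, 12.42 and 12.11 in low NH4+, and 11.57, 11.59 and 11.75 in high NH4+. The high NH4+ arrays were tightly grouped below the other 6, with a difference from water of -0.91 ± 0.17, 1.87-fold lower. The ATJ3-like DnaJ protein, similar to a cytosolic Arabidopsis co-chaperone, was at 11.97, 11.59 and 11.72 in water, 11.43, 11.76 and 11.74 in low NH4+, and 11.06, 11.15 and 10.99 in high NH4+. It again separated high NH4+ from the rest, by -0.7 ± 0.16 relative to water and -0.58 relative to low NH4+. The CLPC-like probe set differed from these 3 in its pattern on the reported scale. CLPC is a chaperone of the plastid stroma that feeds proteins to the Clp protease. Its signals were 10.43, 10.04 and 10.21 in water, 9.69, 9.58 and 9.84 in low NH4+, and 9.67, 9.74 and 9.83 in high NH4+. It was lower by about as much in high NH4+ (-0.48) as in low NH4+ (-0.53), without a call in either, and its 2 ammonium treatments overlapped. These differences were -0.46 and -0.45 under quantile normalization, but -0.37 and -0.16 under median centring.

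Among the 10 members with other titles, 4 were higher in high NH4+ than in water. One probe set carries the conflicting titles pathogenesis-related protein P2 (PR-P2), a defense protein, and NC domain-containing protein, and its identity was not settled. Its log2 signals were 7.62, 10.04 and 10.68 in water, 11.02, 10.0 and 9.71 in low NH4+, and 12.14, 11.64 and 12.06 in high NH4+. The high NH4+ arrays were close together and above the rest, whereas water was spread over a range of 3.07 with replicate 1 far below. The difference of high NH4+ from water was 2.5 ± 0.7, and it was 1.59 without water replicate 1 and 3.12 without water replicate 3. For low NH4+ it was 0.8 with all arrays, -0.12 without water replicate 1 and 1.42 without water replicate 3.

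A probe set similar to the rice locus Os07g0198300, was at 6.02, 7.59 and 6.14 in water, 7.56, 7.02 and 7.6 in low NH4+, and 8.58, 9.04 and 8.59 in high NH4+. Every high NH4+ array lay above the other 6, and signal was 4.44-fold higher in high NH4+ than in water (2.15 ± 0.4). The probe set reached a signal of 100 on 7 arrays, and water replicates 1 and 3 were below it. The other 2 higher ones, similar to the rice loci Os01g0739000 and Os06g0274000, had differences of 0.51 and 0.5 in high NH4+, 0.35 and 0.29 in low NH4+, and were not called.

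The 6 lower members with other titles formed a narrow band. A protein transporter-like probe set was at 8.99, 8.72 and 8.95 in water, 8.47, 8.52 and 8.44 in low NH4+, and 7.65, 7.59 and 8.31 in high NH4+. Its 3 treatments did not overlap in any pair on this scale, and it was 2.05-fold lower in high NH4+ than in water. Its low NH4+ difference of -0.41 shrank to -0.18 under quantile normalization and to -0.05 under median centring. PIMT1-like, similar to the methyltransferase that repairs isoaspartyl residues in aged proteins, was at 9.14, 8.52 and 8.74 in water, 8.1, 8.03 and 8.29 in low NH4+, and 8.21, 7.79 and 7.91 in high NH4+. The ammonium treatments overlapped below water, with differences of -0.83 in high and -0.66 in low NH4+. Both probe sets titled zinc ion binding were lower, by -0.79 and -0.77 in high and -0.61 and -0.37 in low NH4+. Under median centring the low NH4+ differences were -0.25 and -0.01. The ORMDL family member was at 8.42, 8.3 and 8.27 in water, 8.05, 8.22 and 8.03 in low NH4+, and 7.59, 7.54 and 7.97 in high NH4+. Its 3 treatments did not overlap on this scale, with differences of -0.63 in high and -0.23 in low NH4+. The low NH4+ difference turned to 0.02 under quantile normalization and to 0.13 under median centring. In yeast and mammals, ORMDL proteins sit in the endoplasmic reticulum and restrain sphingolipid synthesis. The last, titled proline transporter 1, a membrane carrier, had -0.61 in high and -0.31 in low NH4+ (0.06 under median centring). It was the 1 of these 6 that was not called in high NH4+.

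The probe sets without a protein name held the largest differences of the class at both doses. The probe set for the fruit cDNA FC20CD10 had log2 signals of 4.86, 5.85 and 7.09 in water, 8.16, 7.18 and 7.04 in low NH4+, and 9.7, 10.63 and 8.58 in high NH4+. All high NH4+ arrays exceeded all others, and water replicate 3 reached into the low NH4+ range. The difference from water was 3.7 ± 0.65 in high NH4+, 13.0-fold, and 1.52 in low NH4+, 2.87-fold. Of the 3 water signals, 2 were below 100. The 3 tested probe sets whose signal followed it most closely over the 9 arrays were clones 135387R and 132613F and a probe set similar to histone H2AX, with Pearson correlations of 0.97, 0.96 and 0.95. These are descriptions that include the differences between treatments, and the 3 were picked from 6670.

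Clone 133938F had its highest signal in low NH4+. It was at 7.53, 7.92 and 5.98 in water, 9.42, 10.62 and 10.12 in low NH4+, and 7.92, 8.43 and 8.62 in high NH4+. The low NH4+ arrays lay above all others, 7.51-fold above water (2.91) and with high NH4+ 1.73 below them on the log2 scale (-1.73). It was called in low NH4+ against water and in neither of the other comparisons. Without low NH4+ replicate 2 and water replicate 3, the difference of low NH4+ from water was 2.04. Clone 133428F likewise was called only in low NH4+ against water, at 10.05, 10.66 and 10.83 in low NH4+ against 9.49, 9.48 and 9.53 in water, 2.01-fold higher (1.01). Its high NH4+ arrays, at 10.05, 10.09 and 9.78, were above water and reached the lowest low NH4+ array.

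The mirror image was an untitled probe set, at 9.02, 9.05 and 10.13 in water, 7.74, 6.79 and 7.18 in low NH4+, and 8.66, 7.69 and 8.83 in high NH4+. Low NH4+ was 4.49-fold below water (-2.17) and high NH4+ 2.01-fold below it (-1.01). It was called in low NH4+, and there the difference was -1.58 without low NH4+ replicate 2 and water replicate 3. Clone 132663F was the 1 member called in both comparisons with water, at 10.77, 10.36 and 10.69 in water, 9.64, 10.04 and 9.14 in low NH4+, and 9.56, 9.47 and 9.85 in high NH4+. Both treatments lay below water by about the same amount, with differences of -0.98 in high and -1.0 in low NH4+ (-0.86 and -0.63 under median centring).

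Clone 132370R was called in high NH4+ only, with -1.24 in high and -1.04 in low NH4+. Its water arrays, at 9.58, 9.55 and 9.58, were close together, while those of low NH4+ were at 8.45, 8.93 and 8.2 and those of high NH4+ at 8.31, 7.77 and 8.9. Clone 132599F was at 8.38, 8.19 and 9.32 in water, 8.38, 7.44 and 7.79 in low NH4+, and 7.74, 7.08 and 7.47 in high NH4+. High NH4+ lay below water and low NH4+ overlapped both, with differences of -1.2 in high and -0.76 in low NH4+, without a call. The remaining 9 of this group had differences between -0.76 and 0.73 in high NH4+ and between -0.53 and 0.15 in low NH4+. Clone 114302R was the only member of the class whose mean was below water in high NH4+ (-0.71) and above it in low NH4+ (0.05).

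Other probe sets on the array belonged to the same sequence clusters as some members but were not in the class. One that the study had called and placed in this class would itself be a member. Few calls among these probe sets therefore follow in part from the rule. There were 26 such probe sets for 17 members, of which 13, for 9 members, passed the filter and were tested. Only 9 of the 13 reached a signal of 100 on all 9 arrays. Of the others, 1 reached it on 8 arrays, 1 on 3, and 2 on a single array. Of these last 2, the CLPC-like one reached it on 1 water array and the UBC13-like one on 1 low NH4+ array. Each passed the filter only through the group where its mean was highest. Their signs follow in part from the filter, and the counts below include them. In high NH4+ against water 12 of the 13 had the sign of their member. By mean 8 of the 13 were lower than in water, where 57.5% of all probe sets tested were lower. Of the 13, 0 were called by limma (4, or 30.8%, at an unadjusted p under 0.05, with 22.0% over all probe sets tested, and 0 called by the test of the study's methods). In low NH4+ against water 6 of the 13 had the sign of their member and 0 were called (4 at an unadjusted p under 0.05, with 23.9% over all probe sets tested, and 0 by the test of the methods). In high against low NH4+, 11 had that sign and 1 was called.

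The second probe set for VPE5 had the same high NH4+ difference as the member (-0.6) but a low NH4+ difference of -1.41. The companion of the second zinc ion binding member was at -0.7 in high and 0.13 in low NH4+, against -0.77 and -0.37 for the member. Of the 2 other UBC13-like probe sets, one reached a signal of 100 on 1 low NH4+ array alone. Its values are not set against the member here, although the counts above include it. The other was at -0.51 in high and 0.24 in low NH4+, against -0.73 and -0.14 for the member. The other cathepsin B-like probe set was at 0.03 in high and 0.44 in low NH4+, against -0.61 and -0.48 for the member. The second UMP1-like probe set, with mean log2 signals of 11.37 in water, 11.64 in low and 11.53 in high NH4+, differed from water by 0.16 in high and 0.27 in low NH4+. The member of its cluster was at 0.67 in high and 0.74 in low NH4+. The 3 tested companions of the member similar to Os01g0739000 were above water in high NH4+ (0.49, 0.19 and 0.32) and below it in low NH4+ (-0.35, -1.0 and -0.65), while the member was above water in both. The second of these reached a signal of 100 on only 3 arrays, none of them of low NH4+. The third companion was the one called in high against low NH4+ (0.97, limma adjusted p = 0.0922). Which of the probe sets of a cluster measure the same transcript is not given in the sources used here.

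**Figure D3:**
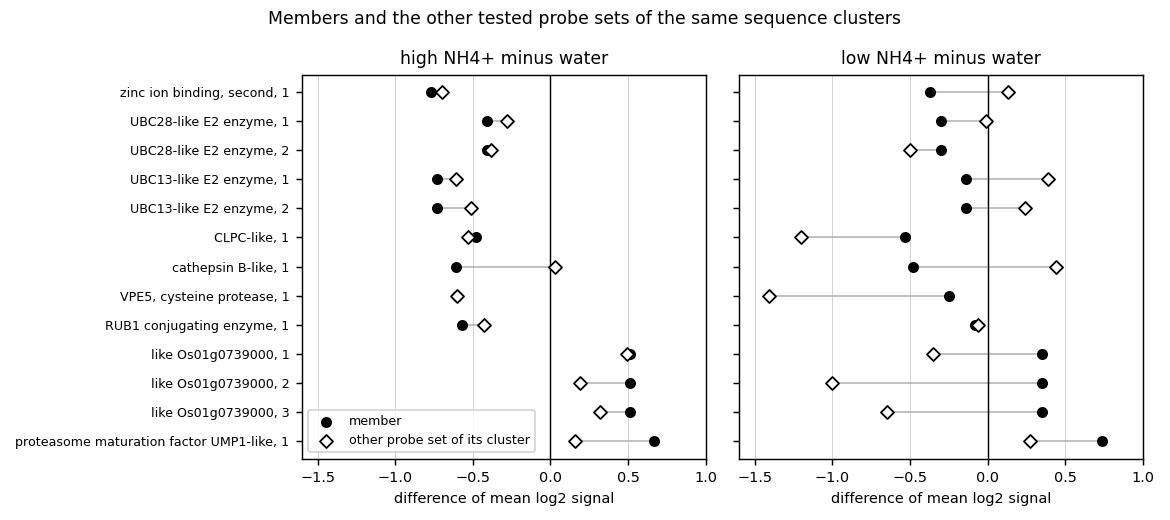
Difference of mean log2 signal from water (x axis) for members (filled circles) and the 13 other tested probe sets of their sequence clusters (open diamonds), in high NH4+ (left panel) and low NH4+ (right panel), n = 3 arrays per treatment. In high NH4+ 12 of the 13 diamonds lie on the same side of 0 as their member, and in low NH4+ 6 do. These counts include a CLPC-like and a UBC13-like probe set that passed the filter on 1 array only, of water and of low NH4+.

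Genes of the same pathways that could be found by symbol on the array numbered 40, with 45 probe sets, of which 38 were tested and 4 were themselves members. The lists were not chosen by how the genes moved, although earlier results of these data were known. In high NH4+ against water 1 of the 38 was called higher and 3 lower, and 3 of these 4 calls were members: ARPI, ubiquitin conjugating enzyme 2 and the RUB1 conjugating enzyme. The remaining call was SRP54 (LOC544156), the subunit of the signal recognition particle that binds signal sequences, with a log2 difference of -0.73 in high and -0.24 in low NH4+ (limma adjusted p = 0.0565 in high NH4+ and 0.35 in low NH4+). Its mean log2 signal was 7.24 in high NH4+ against 7.97 in water.

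By list, 2 of 10 ubiquitin and proteasome probe sets, 0 of 10 for proteases, 1 of 3 for proteinase inhibitors, 0 of 4 for chaperones and foldases and 1 of 11 for sorting and secretion were called in high NH4+ against water. Over all probe sets tested, 6.52% were called in either direction. The calls of the ubiquitin and inhibitor lists were all members, chosen on these arrays, so those shares support nothing. Without the members 1 of 34 probe sets was called. The protease list held 2 probe sets at an unadjusted p under 0.05, 1 in each direction. The lower one was VPE5, itself a member chosen on these arrays, so it supports nothing either. The chaperone list held 0, and the test of the methods called 0 in both lists. The tested chaperones of the list, FKBP12, CPN21 and calnexin (CNX61.0), had differences in high NH4+ between -0.12 and 0.33. Among the tested probe sets of the protease list the subtilases SBT1 and SBT2 had the largest differences, 1.07 and 1.3 in high NH4+ (limma adjusted p = 0.153 and 0.233), and the Clp protease subunit CLPP2 had -0.03. SBT2 passed the filter only through its high NH4+ arrays, at 6.7, 6.69 and 6.86. The sign of its difference therefore follows in part from the filter. In water SBT2 was at 3.9, 6.12 and 6.34, so its difference also rests in part on water replicate 1. SUMO, a relative of ubiquitin, was at 0.77 in high NH4+ (limma adjusted p = 0.124), and the cullin CUL4 at -0.31 (limma adjusted p = 0.264).

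Without the members, 34 probe sets of these lists had a median difference of -0.02 in high and -0.08 in low NH4+, and 19 and 21 of them were below water. In low NH4+ against water limma called 0 of the 38, with 2.98% called over all probe sets tested. An unadjusted p under 0.05 was reached by 3 of the 38 (7.89%) and by 23.9% of all probe sets tested. In high against low NH4+ it called 0, with 0.900% over all probe sets tested, and 5 (13.2%) reached an unadjusted p under 0.05, with 18.5% over all. The test of the methods called 0 in both. The median over all probe sets tested was -0.08 in high and -0.16 in low NH4+ against water.

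The number of members called depended on single arrays. In high NH4+ against water 26 were called with all arrays. None (0) were called when high NH4+ lost replicate 1 or replicate 2, or when water lost replicate 1, and 5 were called when water lost replicate 3. The count was 17 when high NH4+ lost replicate 3 and 15 when low NH4+ lost replicate 1. It was 32 and 30 when low NH4+ lost replicate 2 or 3, and 35 when water lost replicate 2. The number of members below water by mean was 32 in each of these, although leaving out a low NH4+ array cannot change it. Only for the PR-P2 or NC domain probe set did the high NH4+ difference from water change by over 1.5 times in fold when 1 array was left out.

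**Figure D4:**
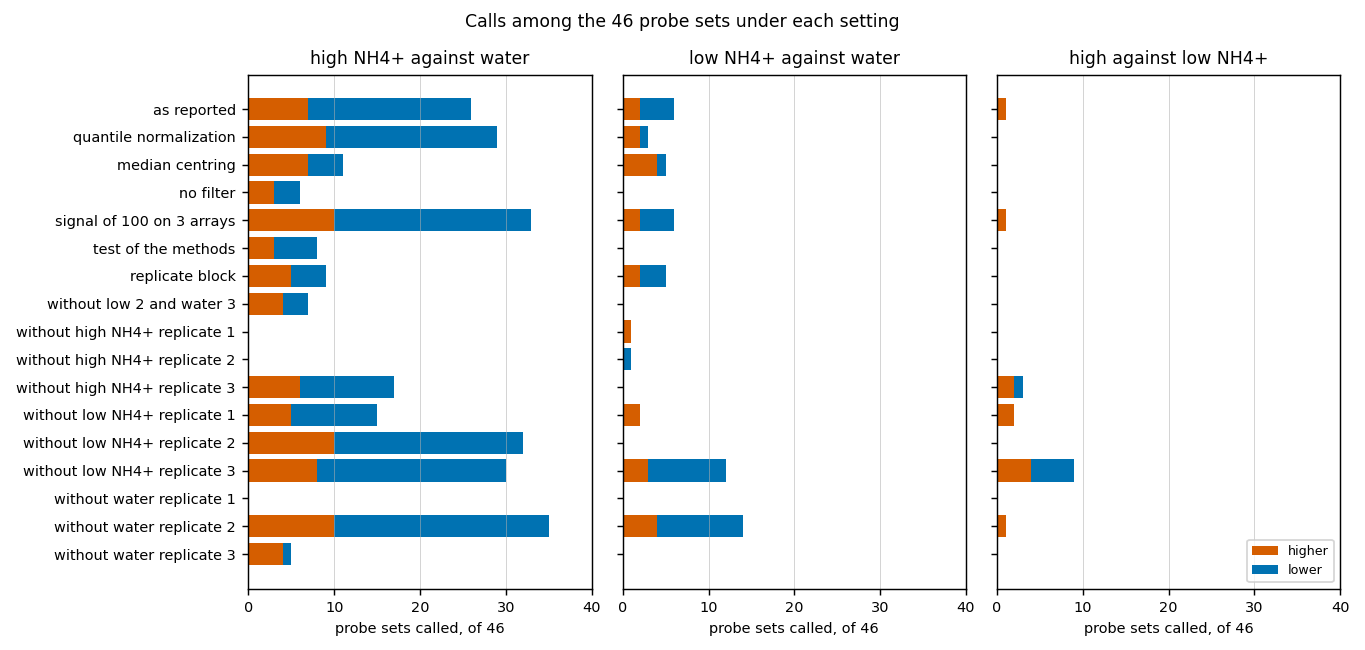
Number of the 46 probe sets called (x axis; higher in orange, lower in blue) in each comparison (panels) under the reported setting and 16 alternatives (rows), with n = 3 arrays per treatment or 2 where an array was left out. In high NH4+ against water the count ranges from 0 to 35 around the reported 26, and in high against low NH4+ it is 0 in most rows.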

How the data were processed

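RNA of patch roots was hybridized to 9 Affymetrix Tomato GeneChips, 3 per treatment, and each array's treatment and replicate number come from its own record. The authors summarized the arrays with MAS5 in Affymetrix Expression Console and deposited the natural log (ln) of each signal. Their versions were not stated in the records read here. These deposited values were converted to the log2 scale without further normalization, and 171 control probe sets were left out. Probe sets with a signal of about 100 on at least 1 array (6670) were fitted with limma 3.58.1 in R 4.3.3, in 1 model of the 3 treatments with empirical Bayes moderation, and p-values were adjusted within each comparison by Benjamini and Hochberg's method. The fit was tested on simulated data. Tables were made in Python 3.11.15 with pandas 2.3.3. With 3 arrays per group, precision is limited by their number.

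Functional classes come from the study's annotation of these arrays, and only the class and titles of a probe set were used. A platform symbol was known for 909 probe sets and 5 members. Members described array by array were the 10 with the largest difference in high NH4+ against water, the 5 largest in each other comparison and those with a named role; other names were chosen after their values were seen. The members and lists were chosen with earlier results of these data known. Alternatives were 2 scalings, 2 filters, the unmoderated test of the study's methods, a replicate block, and leaving out each array or the 2 that stood apart.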

Additional observations from a re-analysis of the deposited data

How the results depend on the processing

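Median centring gave 11 members called in high NH4+ against water, and 19 members below water in low NH4+, the reported count being 31. It gave 1 probe set of the pathway lists called in high NH4+ and 1 in low NH4+ against water. Quantile normalization gave 3 members called in low NH4+. With no filter 6 members were called in high NH4+ and 0 in low NH4+, with 0 of the pathway lists. The test of the methods called 8 and 0, with 2 of the pathway lists in high NH4+. Without low NH4+ replicate 2 and water replicate 3 together 7 and 0 were called, with 1 of the pathway lists. The 1 call in high against low NH4+ became 0 under all of these and under the replicate block, and was kept with the stricter filter. Leaving out 1 array gave 0 to 35 members called in high NH4+ against water, 0 to 14 in low NH4+ against water and 0 to 9 in high against low NH4+. For the pathway lists, with 4, 0 and 0 calls over all arrays, the ranges were 0 to 4, 0 to 2 and 0 to 1.

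Plants stood in blocks according to the study's methods, but the sources read do not say whether replicate numbers stand for blocks. Deviations of same-numbered arrays correlated at -0.378 to 0.349, so the numbers were not taken as pairs, and blocks cannot be told apart from other spread within a treatment. The fit with the replicate block called 9 members in high NH4+, with 1 of the pathway lists, and 5 in low NH4+ against water. The 29 differences of single members from water that were recomputed (23 in high and 6 in low NH4+) gave 464 values, of which 451 moved by less than 1 SD between replicates and 13 by more, and these kept their sign. For each member the larger of its 2 differences from water was taken, which favours a stable sign. The filters, the unmoderated test, the block and leaving out an array of the third treatment cannot change such a difference. Many of the 464 values were therefore fixed in advance. Over all 46 members signs did change. In low NH4+ against water 12 changed under median centring, 3 under quantile normalization, 1 without both arrays that stood apart and 0 to 3 with 1 array left out. In high against low NH4+ these numbers were 5, 2, 3 and 0 to 3. In high NH4+ against water 1 changed under each scaling and 0 under the other alternatives. The causes of these changes were not tested.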
